A study of Mus musculus with 12 samples.

Results

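The Mmp, Adamts, Adamtsl and Timp genes of the mouse retina were described in oxygen-induced retinopathy (OIR) and after treatment with IC100, a humanized monoclonal antibody against the inflammasome adaptor ASC. The members were taken by symbol, as every gene of the count table whose name begins with Mmp, Adamts, Adamtsl or Timp followed by a digit. They were 51 of the 36131 genes in the table, made up of 23 Mmp, 19 Adamts, 5 Adamtsl and 4 Timp genes. Polyadenylated RNA of whole retinas from 12 wildtype C57BL/6J mice was sequenced on postnatal day (P) 18, with 1 library per animal and 4 animals in each of 3 groups. RA-PBS pups (animals 1 to 4) stayed in room air (RA) and received PBS as placebo, O2-PBS pups (animals 5 to 8) were kept with their nursing mothers in 75% O2 from P7 to P12 and received PBS, and O2-IC100 pups (animals 9 to 12) had the same exposure and received IC100 at 10 µg/g. The injections are given as intraperitoneal, on P12, P14 and P16. The paper describes the PBS placebo as injected into the vitreous, so the route in the PBS groups is uncertain. Sex is not among the labels, and no group received room air with IC100, so every effect of the antibody was measured on top of hyperoxia. RNA of a whole retina does not tell fewer cells of a type apart from less RNA per cell.

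Matrix metalloproteinases (MMPs) are zinc enzymes that cut collagens, laminin and other proteins of the extracellular matrix, and the membrane-type MMPs do so at the cell surface. The ADAMTS enzymes are secreted relatives that carry thrombospondin repeats. Some of them cut large proteoglycans such as versican and aggrecan, some trim the amino-terminal propeptide of fibrillar procollagens, and the ADAMTS-like proteins (Adamtsl genes) have the repeats without the protease. The tissue inhibitors of metalloproteinases (TIMPs) bind and block these enzymes. In OIR, vessels lost during hyperoxia are followed by tufts that grow through the inner limiting membrane into the vitreous, and endothelial sprouting through basement membrane is a process in which pericellular proteolysis takes part.

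Library totals lay between 14907143 and 24438082 estimated counts. Levels are given as CPM, counts scaled to a common library size after the total was corrected by TMM, edgeR's factor for composition, and 3 counts, the floor used here, corresponded to 0.144 to 0.378 CPM. The O2-IC100 library of animal 10 stood apart, with 59% of its counts in crystallin genes, whose protein fills the lens, against 0.00691% to 4.51% in the other 11 libraries. Every comparison is therefore given with all 12 animals and without animal 10. The 5 rod markers summed to 31560 to 37640 CPM in the other 11 libraries. RA-PBS animal 1 had counts for 17658 genes where the other libraries but that of animal 10 had 19865 to 21138, and of the tested members Timp1, Mmp12, Mmp25 and Adamts7 had no count in it. The summed CPM of 4 Y-linked genes was 223 to 324 in 7 libraries and 4.06 to 9.81 in RA-PBS animal 4, O2-PBS animals 5, 6 and 7 and O2-IC100 animal 10, so that the presumptive males made up 3 of 4 RA-PBS, 1 of 4 O2-PBS and, without animal 10, 3 of 3 O2-IC100 animals.

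Of the 51 members, 39 passed edgeR's filter on low counts in both fits and were tested. The 12 that did not pass were Adamts13, Adamts14, Mmp1a, Mmp1b, Mmp3, Mmp7, Mmp8, Mmp10, Mmp13, Mmp20, Mmp21 and Mmp27, and 4 of these, Mmp1a, Mmp1b, Mmp7 and Mmp8, had no count in any library. To rank genes against each other, the mean CPM was divided by the length in kilobases of the gene's longest coding transcript in GENCODE M21. In RA-PBS retinas Timp3, the TIMP that binds to the matrix, was highest at 21.3 CPM per kilobase, followed by Adamts3, a procollagen propeptidase, at 13.0 CPM per kilobase. Mmp24, a membrane-type MMP known from neurons, followed at 8.64 CPM per kilobase, then Adamts10 at 8.34, Mmp9 at 7.89, Adamts1 at 7.07, Mmp2 at 6.31, Mmp17 at 5.13 and Mmp14 at 4.69 CPM per kilobase. In O2-PBS retinas Mmp14 stood at 8.05 and Adamts1 at 10.8 CPM per kilobase.

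**Figure D1:**
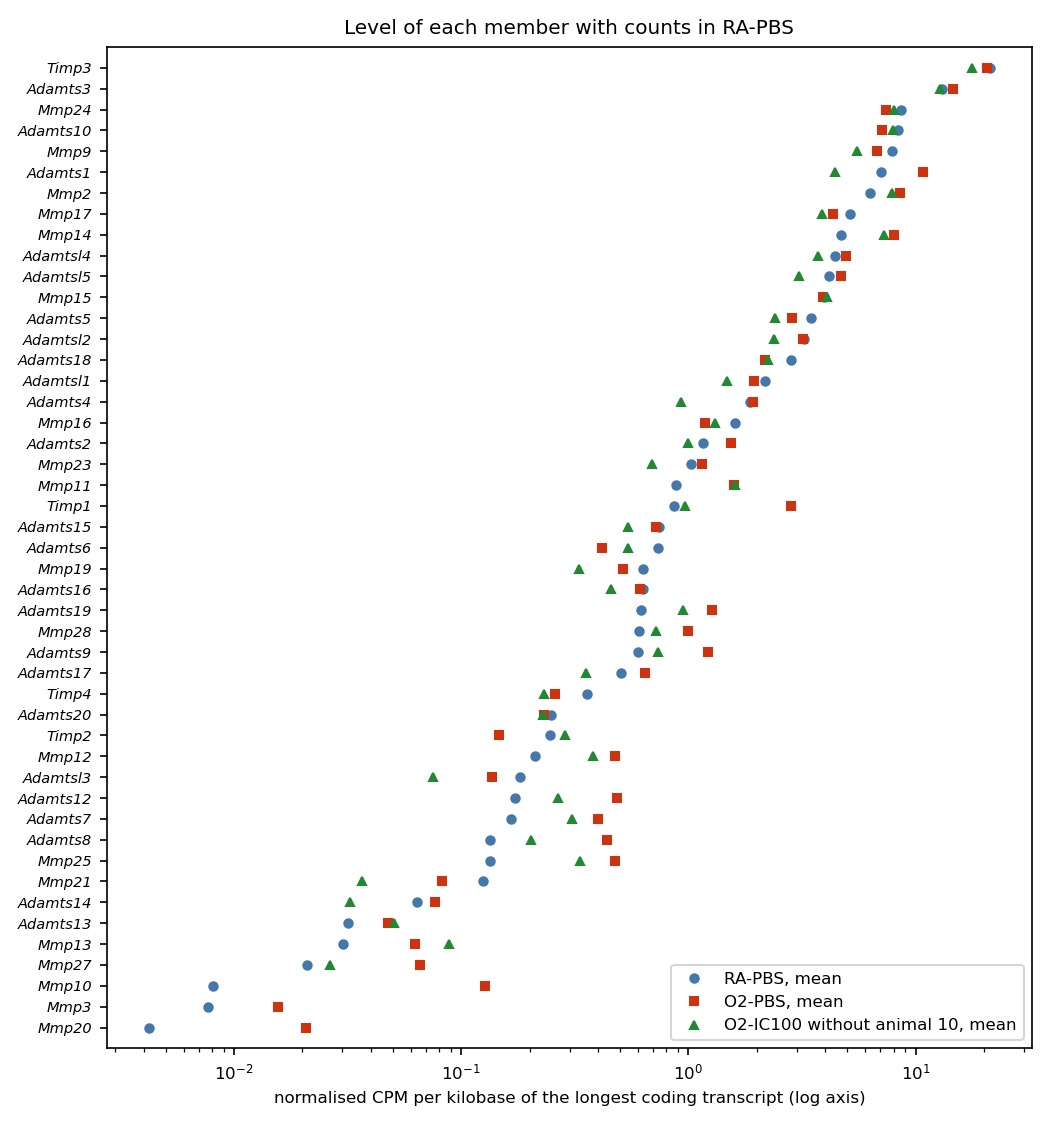
Mean level of the 47 members with any count in RA-PBS, as normalised CPM per kilobase of the longest coding transcript on a log axis, for RA-PBS (circles), O2-PBS (squares) and O2-IC100 without animal 10 (triangles); no symbol is drawn for a mean of 0. Timp3 and Adamts3 lead, and the genes of the Mmp run on chromosome 9 other than Mmp12 lie at the foot of the plot.

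Most of the untested members lie side by side in the genome. On chromosome 9, 10 Mmp genes, Mmp1a, Mmp1b, Mmp3, Mmp7, Mmp8, Mmp10, Mmp12, Mmp13, Mmp20 and Mmp27, form a run that holds the interstitial collagenases, the stromelysins Mmp3 and Mmp10, matrilysin (Mmp7), enamelysin (Mmp20) and macrophage elastase (Mmp12). Of these, 9 were not tested, and the highest count of any of the 9 in any library was 9, for Mmp10 in O2-PBS animal 5. Mmp10 had 9, 0, 5 and 1 counts in the O2-PBS animals, 0, 0, 1 and 0 in the RA-PBS animals and 0 in all 4 O2-IC100 animals. Most of these libraries were at or under the floor of 3 counts, and no fold is given. Mmp3 had 1 count in each of 3 libraries, 5 in animal 10 and 0 in the other 8. Mmp13, the main interstitial collagenase of rodents, reached at most 6 counts. Mmp12 was the only gene of the run that was tested, with at most 70.8 counts.

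Promoters are printed here because their letters differed between this run and the other members for which a promoter was at hand. RefSeq windows were at hand for 36 members, 39 windows in all, on build GRCm38.p6. No window was at hand for Mmp2, Mmp9, Mmp16, Mmp17, Mmp19, Adamts4, Adamts5, Adamts6, Adamts7, Adamts8, Adamts10, Adamts15, Adamts16, Adamts19 or Adamtsl1. The motif counts do not cover these genes, and the motifs were chosen after values were seen. The counts were made on GRCm39, so the positions are those of the window table only. The 250 bases before each annotated start were searched on both strands for 6 short motifs. These were the AP-1 site with the letters TGANTCA, the TATA box with the letters TATAAA, the GC box with the letters GGGCGG and the core of the hypoxia response element, ACGTG. A STAT site, TTCNNNGAA, and a loose NF-kB site were searched as well. Matches of different motifs may overlap. Capitals mark the letters of the AP-1 site, the TATA box and the GC box on either strand. Mmp3 and Mmp10 are shown as genes of the run that were at or near 0, and Mmp12 as its tested gene (the window of its 2 that holds TGANTCA). Mmp14, Adamts1 and Timp1 are shown as members the results turn on, and all sequences run 5′ to 3′ in the direction of the gene.
Mmp3: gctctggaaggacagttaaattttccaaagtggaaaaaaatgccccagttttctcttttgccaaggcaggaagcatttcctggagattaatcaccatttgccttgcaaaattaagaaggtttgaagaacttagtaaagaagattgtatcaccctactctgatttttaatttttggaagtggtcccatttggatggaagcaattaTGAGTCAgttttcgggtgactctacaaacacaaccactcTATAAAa
Mmp10: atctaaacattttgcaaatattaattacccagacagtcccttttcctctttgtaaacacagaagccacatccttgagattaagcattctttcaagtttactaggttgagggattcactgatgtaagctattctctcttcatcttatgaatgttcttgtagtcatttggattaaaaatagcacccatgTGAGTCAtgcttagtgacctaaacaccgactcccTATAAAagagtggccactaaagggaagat
Mmp12: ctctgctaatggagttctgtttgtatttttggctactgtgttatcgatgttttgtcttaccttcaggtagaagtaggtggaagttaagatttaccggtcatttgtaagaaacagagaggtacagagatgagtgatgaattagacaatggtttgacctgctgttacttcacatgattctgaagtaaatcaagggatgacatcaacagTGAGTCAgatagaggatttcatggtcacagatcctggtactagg
Mmp14: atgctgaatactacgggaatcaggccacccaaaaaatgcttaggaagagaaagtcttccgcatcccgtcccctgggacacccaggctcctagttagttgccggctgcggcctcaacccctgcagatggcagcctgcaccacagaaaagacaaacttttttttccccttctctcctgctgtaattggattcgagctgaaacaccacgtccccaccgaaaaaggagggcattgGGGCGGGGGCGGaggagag
Adamts1: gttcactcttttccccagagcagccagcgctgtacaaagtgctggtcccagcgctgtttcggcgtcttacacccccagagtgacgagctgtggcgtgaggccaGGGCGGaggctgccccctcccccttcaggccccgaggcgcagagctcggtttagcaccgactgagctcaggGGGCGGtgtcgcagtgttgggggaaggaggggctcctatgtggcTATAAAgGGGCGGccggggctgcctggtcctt
Timp1: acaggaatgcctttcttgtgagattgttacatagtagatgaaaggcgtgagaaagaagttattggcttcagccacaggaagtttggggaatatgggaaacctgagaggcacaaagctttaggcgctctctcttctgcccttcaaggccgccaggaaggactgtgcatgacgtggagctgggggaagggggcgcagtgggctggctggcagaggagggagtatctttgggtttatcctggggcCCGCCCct

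These windows lie at chr9:7445572-7445821 for Mmp3, chr9:7502092-7502341 for Mmp10, chr9:7347124-7347373 for Mmp12, chr14:54431348-54431597 for Mmp14, chr16:85803114-85803363 for Adamts1 and chrX:20869916-20870165 for Timp1. Adamts1 lies on the minus strand and the others on the plus strand. TGANTCA stood in 8 of the 10 genes of the run, all but Mmp8 and Mmp27, and in 0 of the 26 other members with a window, against 6.75% of all 32851 windows. In Mmp3 and Mmp10 the match ends 39 and 56 bases before the start, and in Mmp12 37 bases before it. TATAAA stood in 7 of the 10 and in 3 of the other 26, among them Adamts1, and in 12.4% of all windows. The GC box had the opposite split, with 0 of the 10 and 20 of the 26, against 32.7% of all windows. ACGTG was found in 7 members, Adamts3, Adamts17, Adamts18, Adamts20, Mmp7, Mmp14 and Timp1, and in 16.6% of all windows. TTCNNNGAA stood in 0 of the 10 and 1 of the 26 and in 7.02% of all windows, and the loose NF-kB site in 3 of the 10 and 18 of the 26 and in 45.8% of all windows. A match is a description of these letters and was not tied to binding, and the 10 genes of the run are related by descent.

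The first comparison asked which members differed between retinas with OIR and room air retinas at P18. Without animal 10, 8 of the 39 tested members (20.5%) were called, where a call needed a fold change of at least 1.5, an unadjusted p under 0.05 and a Benjamini-Hochberg adjusted p under 0.1 in edgeR's quasi-likelihood test, and 6.27% of all 16688 tested genes were called. Mmp14, Mmp11, Mmp25, Adamts8, Adamts9, Adamts12 and Adamts19 were higher in O2-PBS, 7 members against a share of 4.09% of all genes called higher. Adamts6 alone was lower, against 2.18% of all genes called lower. The members as a whole were not shifted, with 20 fitted higher and 19 lower and a median log2 fold change of 0.05 over the members against -0.0066 over all tested genes. In 11 members every O2-PBS animal lay above every RA-PBS animal, where 7.8% of all tested genes did so, and in 3 every one lay below, where 6.54% of all genes did. With all 12 animals 0 of 39 members were called by edgeR, against 0.807% of all genes, while 8 had an unadjusted p under 0.05, all of them higher in O2-PBS, where 7.12% of all genes had one. DESeq2 called 5 members and 2.5% of all genes. The animal left out belongs to neither group, and it enters through the scaling, the filter and the estimate of the spread that the 3 groups share.

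**Figure D2:**
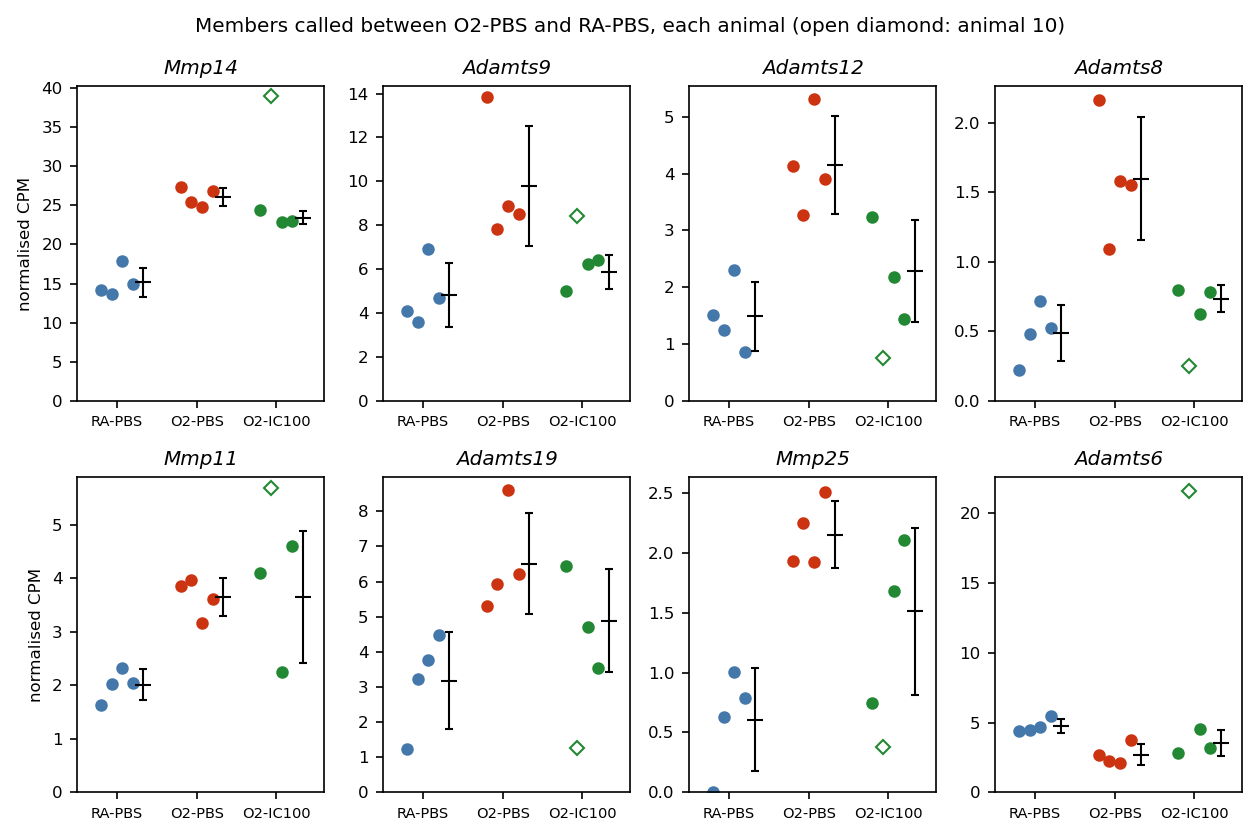
Normalised CPM of the 8 members called between O2-PBS and RA-PBS, with 1 point per animal, the open diamond for animal 10, and the mean ± SD beside each group drawn without animal 10. In each panel the O2-PBS points do not overlap the RA-PBS points. In the O2-IC100 animals other than animal 10, Mmp14 lies near the O2-PBS level while Adamts8 and Adamts9 lie nearer to RA-PBS. Animal 10 lies above the O2-PBS points for Mmp14 and among them for Adamts9.

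Mmp14 (ENSMUSG00000000957), also called MT1-MMP, is a membrane-type enzyme that cuts fibrillar collagen at the cell surface and activates pro-MMP2. It stood at 14.2, 13.7, 17.9 and 14.98 CPM in the RA-PBS animals and at 27.3, 25.4, 24.8 and 26.8 CPM in the O2-PBS animals. The groups did not overlap, and the means were 15.2 ± 1.86 and 26.1 ± 1.18 CPM (SD, n = 4 each). The log2 fold change was 0.78 ± 0.098 (SE, edgeR adjusted p = 0.000402), and Mmp14 was called in each of the 11 fits that left out a further animal. Its partner Mmp2, the secreted gelatinase A, lay between 17.6 and 21.3 CPM in RA-PBS and between 24.3 and 27.7 CPM in O2-PBS. The Mmp2 groups did not overlap either, and the log2 fold change of 0.43 ± 0.098 (SE, edgeR adjusted p = 0.0159) passed the adjusted p but not the fold required for a call. Mmp9, gelatinase B, is made by neutrophils and macrophages among other cells. It stood at 32.1, 29.0, 20.4 and 18.7 CPM in RA-PBS and at 24.5, 19.9, 20.2 and 21.1 CPM in O2-PBS. The 2 groups overlapped (log2 fold change -0.23 ± 0.17 SE, edgeR adjusted p = 0.464), and the summed level of 5 neutrophil markers was under 1 CPM in every library (0.192 to 0.937 CPM).

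Among the other membrane-type MMPs, Mmp25, which is anchored by a lipid and known from leukocytes, was called on low counts. It stood at 0, 0.632, 1.00 and 0.792 CPM in RA-PBS and at 1.93, 2.24, 1.92 and 2.502 CPM in O2-PBS, without overlap. Its log2 fold change of 1.82 ± 0.56 (SE, edgeR adjusted p = 0.0656) was no longer called without any 1 of the 4 O2-PBS animals, with adjusted p up to 0.149, in the fit of these 2 groups alone or with a Y-linked covariate. Mmp15, Mmp16, Mmp17 and Mmp24 were fitted with log2 fold changes between -0.43 and -0.0052 and none was called. For Mmp17 and Mmp24 the O2-PBS animals lay wholly below the RA-PBS animals, with log2 fold changes of -0.25 ± 0.084 and -0.22 ± 0.072 (SE, edgeR adjusted p = 0.0919 and 0.0857) that were under the fold required.

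Mmp11, stromelysin 3, is secreted in active form by stromal cells. It stood at 1.63, 2.03, 2.33 and 2.05 CPM in RA-PBS and at 3.86, 3.96, 3.16 and 3.60 CPM in O2-PBS, again without overlap. The log2 fold change was 0.86 ± 0.23 (SE, edgeR adjusted p = 0.0392), and the call was lost without O2-PBS animal 6 (adjusted p = 0.109) and with a Y-linked covariate. Mmp12, the macrophage elastase of the chromosome 9 run, was at 0 in RA-PBS animal 1, at 0.950 to 1.06 CPM in the other 3 and at 1.43 to 2.00 CPM in O2-PBS, and was not called (log2 fold change 1.17 ± 0.56 SE, edgeR adjusted p = 0.240). Mmp28 (epilysin), at 1.29 to 3.02 CPM in RA-PBS and 3.10 to 3.79 CPM in O2-PBS, was likewise not called (adjusted p = 0.153).

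Of the 7 ADAMTS proteoglycanases, 2 were called and both were higher in O2-PBS. Adamts9, a versican-cutting enzyme known from endothelium and from embryonic tissue, stood at 4.09, 3.62, 6.91 and 4.69 CPM in RA-PBS and at 13.8, 7.83, 8.90 and 8.53 CPM in O2-PBS. O2-PBS animal 5 was the highest, and the other 3 still lay above all RA-PBS animals. The log2 fold change of 1.01 ± 0.23 (SE, edgeR adjusted p = 0.0145) was 0.81 without animal 5 (adjusted p = 0.0479). Adamts8, whose product has been described as antiangiogenic, stood at 0.224, 0.483, 0.721 and 0.526 CPM in RA-PBS and at 2.17, 1.09, 1.58 and 1.55 CPM in O2-PBS. This was the second largest fold among the called members, with a log2 fold change of 1.69 ± 0.38 (SE, edgeR adjusted p = 0.0151). Adamts8 and Adamts9 were each called in all 11 fits that left out a further animal.

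The remaining proteoglycanases were not called. Adamts1 cuts versican and aggrecan and has also been described as antiangiogenic. It stood at 34.6, 41.1, 39.0 and 23.4 CPM in RA-PBS and at 98.8, 36.6, 34.3 and 41.8 CPM in O2-PBS. The difference rested on O2-PBS animal 5, since the log2 fold change of 0.61 ± 0.33 (SE, edgeR adjusted p = 0.313) was 0.12 without it. Adamts4, an aggrecanase, was at 3.82 to 17.0 CPM in RA-PBS and 7.09 to 12.4 CPM in O2-PBS, with overlap (log2 fold change 0.05 ± 0.39 SE, edgeR adjusted p = 0.958). Adamts5, the other main aggrecanase, was at 32.1 to 40.8 CPM and 26.0 to 40.7 CPM, also with overlap (log2 fold change -0.29 ± 0.14 SE, edgeR adjusted p = 0.233).

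Among the other ADAMTS genes, Adamts12, which cuts cartilage oligomeric matrix protein, and Adamts19, whose substrate is not settled, were higher in O2-PBS and Adamts6 was lower. Adamts12 stood at 1.51, 1.26, 2.31 and 0.869 CPM in RA-PBS and at 4.13, 3.27, 5.31 and 3.90 CPM in O2-PBS (log2 fold change 1.47 ± 0.32 SE, edgeR adjusted p = 0.0125). The groups did not overlap, and Adamts12 was called in all 11 fits that left out a further animal. Adamts19 stood at 1.24, 3.24, 3.78 and 4.47 CPM in RA-PBS and at 5.31, 5.95, 8.60 and 6.20 CPM in O2-PBS (log2 fold change 1.03 ± 0.31 SE, edgeR adjusted p = 0.0614). That call was lost without O2-PBS animal 6, 7 or 8, with adjusted p up to 0.183, and with a Y-linked covariate. Adamts6, which acts on the fibrillin network, stood at 4.43, 4.44, 4.66 and 5.48 CPM in RA-PBS and at 2.65, 2.24, 2.09 and 3.77 CPM in O2-PBS. It fell by 0.82 ± 0.23 on the log2 scale (SE, edgeR adjusted p = 0.0399), and the call was lost without O2-PBS animal 6 or 7. The procollagen propeptidases Adamts2 and Adamts3 and the 5 Adamtsl genes gave 0 calls, with log2 fold changes from -0.42 for Adamtsl3 to 0.41 for Adamts2.

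**Figure D3:**
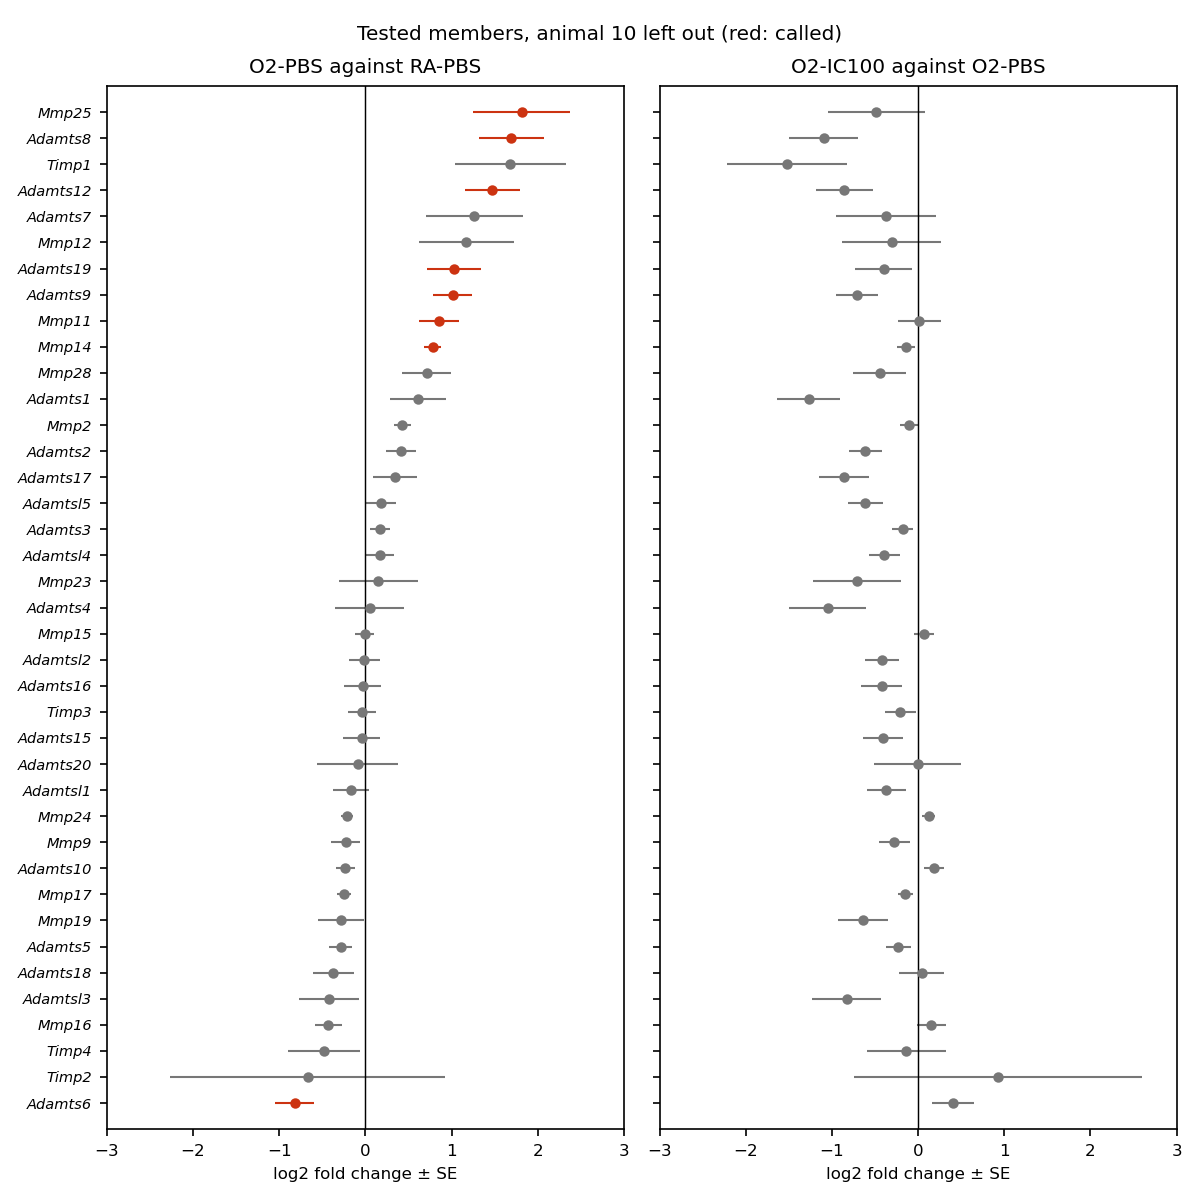
Log2 fold change ± SE (horizontal axis) of the 39 tested members, ordered by the O2-PBS against RA-PBS value, for O2-PBS against RA-PBS (left) and O2-IC100 against O2-PBS (right), both without animal 10; called members are red. The left panel has 8 red points and the right panel has none, and 31 of the 39 points on the right lie below 0; both panels share the O2-PBS animals.

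None of the 4 Timp genes was called between O2-PBS and RA-PBS. Timp1, the inducible TIMP, stood at 0, 1.21, 1.28 and 0.579 CPM in RA-PBS and at 4.52, 1.09, 2.88 and 1.495 CPM in O2-PBS. O2-PBS animal 6 lay within the RA-PBS range, and the log2 fold change of 1.68 ± 0.64 (SE) had an edgeR adjusted p of 0.134, while DESeq2 called Timp1 at this threshold. Timp3 stood at 67.1, 107, 140 and 87.1 CPM in RA-PBS and at 105, 93.2, 90.2 and 102 CPM in O2-PBS, with overlap (log2 fold change -0.04 ± 0.16 SE, edgeR adjusted p = 0.908). Crystallin genes held 0.00691%, 1.26%, 4.51% and 1.45% of the counts in the same RA-PBS animals and 0.00788% to 0.0204% in O2-PBS. The part of lens RNA in the Timp3 levels was not tested. With a lens covariate Timp3 was called with all 12 animals and not without animal 10. Timp4 was at 0.869 to 4.16 CPM and 1.07 to 1.67 CPM, with overlap and an adjusted p of 0.547. Timp2, the inhibitor that takes part in the activation of pro-MMP2 by Mmp14, was listed at 0 in O2-PBS animals 5, 7 and 8 and O2-IC100 animals 9 and 11, and at 38.0, 3.66, 15.2 and 9.41 estimated counts in the RA-PBS animals, 41.7 in O2-PBS animal 6, 46.3 in animal 10 and 65.2 in animal 12. No fold is given for Timp2, since libraries listed at 0 stood beside well counted ones within a group. Timp1, Timp3 and Timp4 lie within synapsin genes on the opposite strand, and whether strand was used in counting is not given in the sources used here.

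The second comparison asked how these genes differed with IC100 in retinas exposed to hyperoxia. Without animal 10 edgeR called 0 of 39 members, against 0.947% of all genes, and 11 had an unadjusted p under 0.05, all of them lower in O2-IC100, where 19.2% of all genes had one. DESeq2 called 5 members (Adamts1, Adamts2, Adamts9, Adamts17 and Adamtsl5), all lower in O2-IC100, against 2.3% of all genes, and edgeR on these 2 groups alone called 8 (Adamts2, Adamts4, Adamts8, Adamts9, Adamts12, Adamts17, Adamtsl5 and Timp1), against 4.83% of all genes. With all 12 animals edgeR called 0 members, against 0% of all genes. An unadjusted p under 0.05 was found for 10 members, 3 higher and 7 lower, where 16.9% of all genes had one. DESeq2 called 0 members and 0.758% of all genes.

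The direction was uneven across the members with and without animal 10. With all 12 animals 26 members were fitted lower and 13 higher in O2-IC100. The median log2 fold change was -0.30 over the members against 0.0037 over all tested genes. In 10 members every O2-IC100 animal lay below every O2-PBS animal, against 10.6% of all genes, and in 0 wholly above, against 10.1%. Without animal 10 the fit put 31 members lower and 8 higher. The median log2 fold change was then -0.37 over the members against 0.004 over all tested genes. In 18 members, every one of the 3 O2-IC100 animals lay below all 4 O2-PBS animals, against 17.2% of all tested genes, and in 0 members did they lie wholly above, against 18% of all tested genes. The 18 were Adamts1, Adamts2, Adamts3, Adamts4, Adamts7, Adamts8, Adamts9, Adamts12, Adamts16, Adamts17, Adamtsl1, Adamtsl3, Adamtsl4, Adamtsl5, Mmp14, Mmp19, Timp1 and Timp3, that is 10 Adamts, 4 Adamtsl, 2 Mmp and 2 Timp genes. All 7 proteoglycanases and all 5 Adamtsl genes were fitted lower, with medians of -0.71 and -0.42, while the 6 membrane-type MMPs were split 3 and 3 with a median of -0.035.

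Values are given for the proteoglycanases, for members called in OIR and for Timp1. The calls in OIR used the same O2-PBS animals that are the reference here. Adamts5, Adamts15 and Adamts20 overlapped with O2-PBS. Their log2 fold changes were -0.23 ± 0.15, -0.41 ± 0.23 and -0.0047 ± 0.50 (SE, edgeR adjusted p = 0.390, 0.341 and 0.997). Adamts1 stood at 23.5, 23.7 and 17.7 CPM in O2-IC100 animals 9, 11 and 12, below the lowest O2-PBS animal at 34.3 CPM and below 3 of the 4 RA-PBS animals. Its log2 fold change was -1.27 ± 0.37 (SE, edgeR adjusted p = 0.150) and -0.79 without O2-PBS animal 5. Adamts4 stood at 4.56, 2.95 and 4.67 CPM against 7.09 to 12.4 CPM in O2-PBS (log2 fold change -1.05 ± 0.45 SE, edgeR adjusted p = 0.239). Adamts8 stood at 0.798, 0.624 and 0.784 CPM and Adamts9 at 5.00, 6.23 and 6.42 CPM. Both lay below every O2-PBS animal, with log2 fold changes of -1.10 ± 0.40 and -0.71 ± 0.24 (SE, edgeR adjusted p = 0.191 and 0.180). Adamts12 stood at 3.24, 2.17 and 1.44 CPM, just below the lowest O2-PBS animal at 3.27 CPM in the case of animal 9 (log2 fold change -0.86 ± 0.33 SE, edgeR adjusted p = 0.212). Timp1 had the lowest fitted fold change of the 39 members, with levels of 0.904, 0.863 and 0.784 CPM, within the RA-PBS range and below the 1.09 to 4.52 CPM of O2-PBS (log2 fold change -1.53 ± 0.70 SE, edgeR adjusted p = 0.255).

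Mmp14 and Mmp2 had smaller fitted differences. Mmp14 stood at 24.4, 22.9 and 23.0 CPM in the 3 O2-IC100 animals, just below the O2-PBS animals at 24.8 to 27.3 CPM, a log2 fold change of -0.14 ± 0.10 (SE, edgeR adjusted p = 0.453) against O2-PBS. Mmp2 stood at 25.8, 21.1 and 25.5 CPM, and Mmp11 at 4.10, 2.25 and 4.61 CPM, with overlap in both and log2 fold changes of -0.10 ± 0.10 and 0.016 ± 0.24 (SE, edgeR adjusted p = 0.597 and 0.977). Adamts6 stood at 2.82, 4.56 and 3.19 CPM, Adamts19 at 6.44, 4.70 and 3.53 CPM and Mmp25 at 0.745, 1.68 and 2.11 CPM, each overlapping with O2-PBS (adjusted p = 0.359, 0.506 and 0.646). Whether the antibody's effect differed between these members and the proteoglycanases was not tested.

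**Figure D4:**
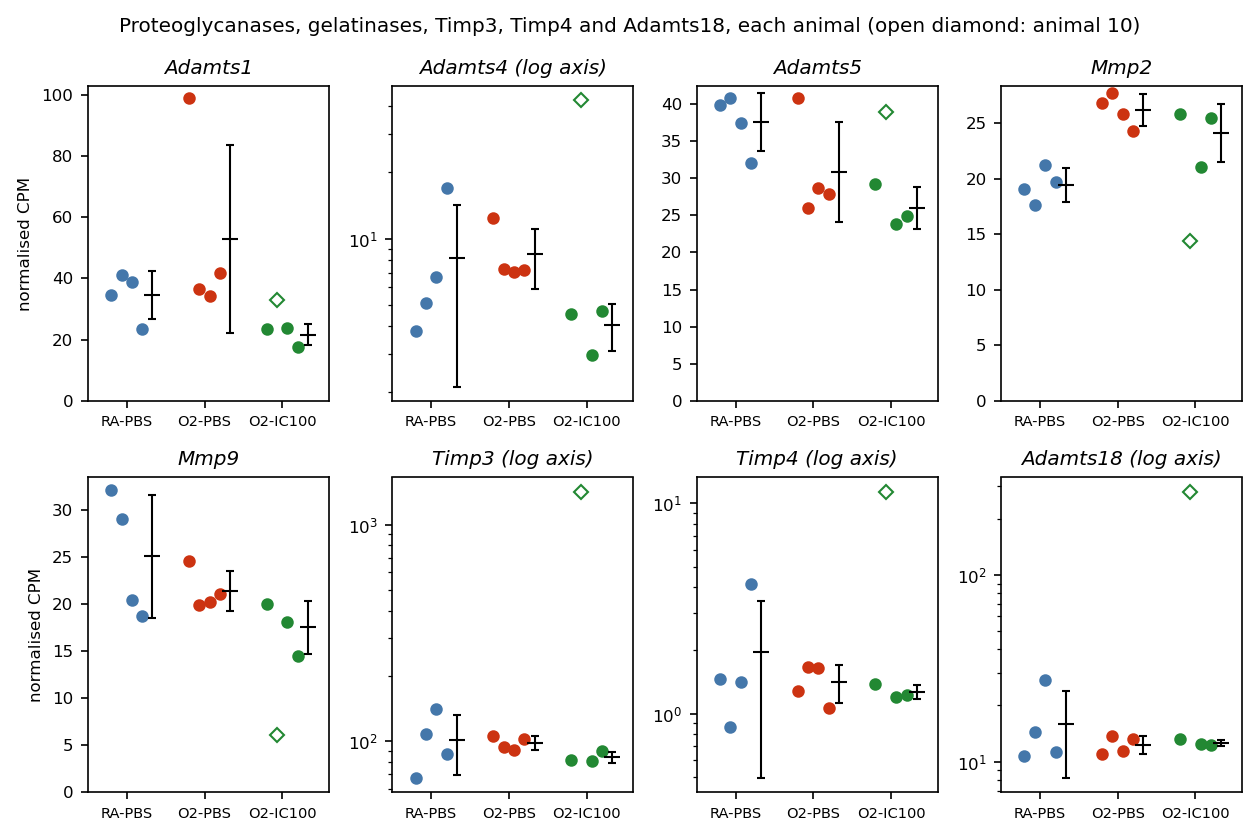
Normalised CPM of Adamts1, Adamts4, Adamts5, Mmp2, Mmp9, Timp3, Timp4 and Adamts18, with 1 point per animal, the open diamond for animal 10, and the mean ± SD without animal 10; Adamts4, Timp3, Timp4 and Adamts18 are on log axes, and the other panels start at 0. O2-PBS animal 5 lies far above the others for Adamts1, and animal 10 lies far above the rest for Adamts4, Timp3, Timp4 and Adamts18 and below the rest for Mmp2 and Mmp9.

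The presumptive sex of the animals moved with this comparison. O2-PBS animal 8 was the only O2-PBS library with Y-linked RNA, at 229.8 summed CPM, against 282 to 324 summed CPM in O2-IC100 animals 9, 11 and 12. Set against those 3 animals, animal 8 was above all for 26 of the 39 members (66.7%) and below all for 4 (10.3%). The shares over all tested genes were 32.1% and 31.1%. The 18 members listed above as wholly below O2-PBS are among the 26 by construction, so this count is not independent of that one. With the Y-linked sum as a covariate edgeR called 0 members without animal 10, against 0.216% of all genes, and 14 with animal 10, against 22.3% of all genes. Animal 10 was the only O2-IC100 library with little Y-linked RNA, at 4.06 summed CPM. Within O2-IC100 the covariate therefore also marks the lens-rich library, and the fit with animal 10 cannot tell the 2 apart. Markers of other cell types differed as well. The summed level of 6 endothelial markers was 163.8 to 250 CPM in RA-PBS, 358.6 to 407.6 CPM in O2-PBS and 264.7 to 294.5 CPM in O2-IC100 without animal 10, and all 6 were called higher in O2-PBS than in RA-PBS and 2 were called lower in O2-IC100 than in O2-PBS. The 6 mural cell markers summed to 146.8 to 183.6 CPM, 320.4 to 468.1 CPM and 287.8 to 346.0 CPM in the same order (5 called higher and 1 called lower), and the 4 reactive glia markers to 150.7 to 559.3 CPM, 417.1 to 603.8 CPM and 227.4 to 306.5 CPM (1 called higher and 1 called lower). The 6 microglia markers summed to 21.9 to 33.5 CPM, 36.8 to 45.9 CPM and 41.0 to 51.6 CPM, with 3 called higher in O2-PBS and 0 called in either direction with IC100. The 4 pigment epithelium markers summed to 89.4 to 237.8 CPM, 35.9 to 107.6 CPM and 102 to 122 CPM, with 2 called lower in O2-PBS, and the 4 Muller glia markers to 2807 to 3955 CPM, 2223 to 2544 CPM and 2754 to 2975 CPM, with 1 called lower in O2-PBS. No list summed to 0 in any library, and their part in the members' levels was not tested. All 11 tested lens markers were called lower in O2-PBS than in RA-PBS, with sums of 8.97 to 28690 CPM in RA-PBS and 4.83 to 75.7 CPM in O2-PBS.

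The third comparison set O2-IC100 against RA-PBS, and shares the RA-PBS animals with the first. Without animal 10, 1 of 39 members was called, against 1.56% of all genes. It was Mmp14, whose 3 O2-IC100 animals at 22.9 to 24.4 CPM lay above all RA-PBS animals at 13.7 to 17.9 CPM (log2 fold change 0.64 ± 0.10 SE, edgeR adjusted p = 0.0192). The call was lost without RA-PBS animal 2 or O2-IC100 animal 12 and in the fit of these 2 groups alone. In the main edgeR fit without animal 10, 13 members had an unadjusted p under 0.05, 4 higher and 9 lower in O2-IC100. Of all genes 15.6% had one. That fit put 25 members lower and 14 higher, with a median log2 fold change of -0.22 against 0.015 over all tested genes. In Adamts5, Adamtsl3, Mmp17, Mmp19 and Mmp24 every O2-IC100 animal but animal 10 lay below every RA-PBS animal. These were 5 members, against 5.49% of all genes, and 1 lay wholly above, against 5.17%. The members called in OIR that stood nearer to RA-PBS, Adamts8, Adamts9 and Adamts12, had log2 fold changes of 0.60, 0.30 and 0.62 (adjusted p = 0.527, 0.589 and 0.415). These 3 were picked from the called members after their values were seen. Both distances were measured with the same RA-PBS and O2-PBS animals that gave the calls, and a return towards RA-PBS was not tested. With all 12 animals edgeR called 0 members, against 0% of all genes, 9 had an unadjusted p under 0.05, where 13.2% of all genes had one, and DESeq2 called 3 members and 1.81% of all genes.

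Animal 10 differed from the other O2-IC100 animals in many members at once. Of the 39 tested members, 9 exceeded the mean of animals 9, 11 and 12 by a factor of 4 or more in animal 10 (23.1%, against 9.21% of all tested genes), and 4 were at least 4-fold lower (10.3%, against 14.2%). Adamts18 was highest relative to the others, at 279.3 CPM against a mean of 12.6 CPM, 22.2-fold. Timp3 stood at 1417 CPM against 83.8 CPM, 16.9-fold, Adamts4 at 42.5 CPM against 4.06 CPM, 10.5-fold, and Timp4 at 11.4 CPM against 1.27 CPM, 8.93-fold. Adamtsl4, the gene mutated in inherited dislocation of the lens, was at 107 CPM against 15.1 CPM, 7.12-fold. Of the members lower by that factor, Adamts3 stood at 5.80 CPM against 50.4 CPM, Mmp24 at 4.61 against 34.5 CPM, Adamtsl2 at 1.39 against 8.57 CPM and Mmp17 at 5.30 against 24.8 CPM, so that animal 10 was 8.68-fold, 7.48-fold, 6.17-fold and 4.68-fold lower. Beside these, the summed lens markers of animal 10 reached 1134000 CPM, since the TMM correction can carry a sum past the library total, the 4 pigment epithelium markers 5318 CPM against 102 to 122 CPM in the other 3, and the 5 rod markers 8939 CPM against 32470 to 35640 CPM.

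**Figure D5:**
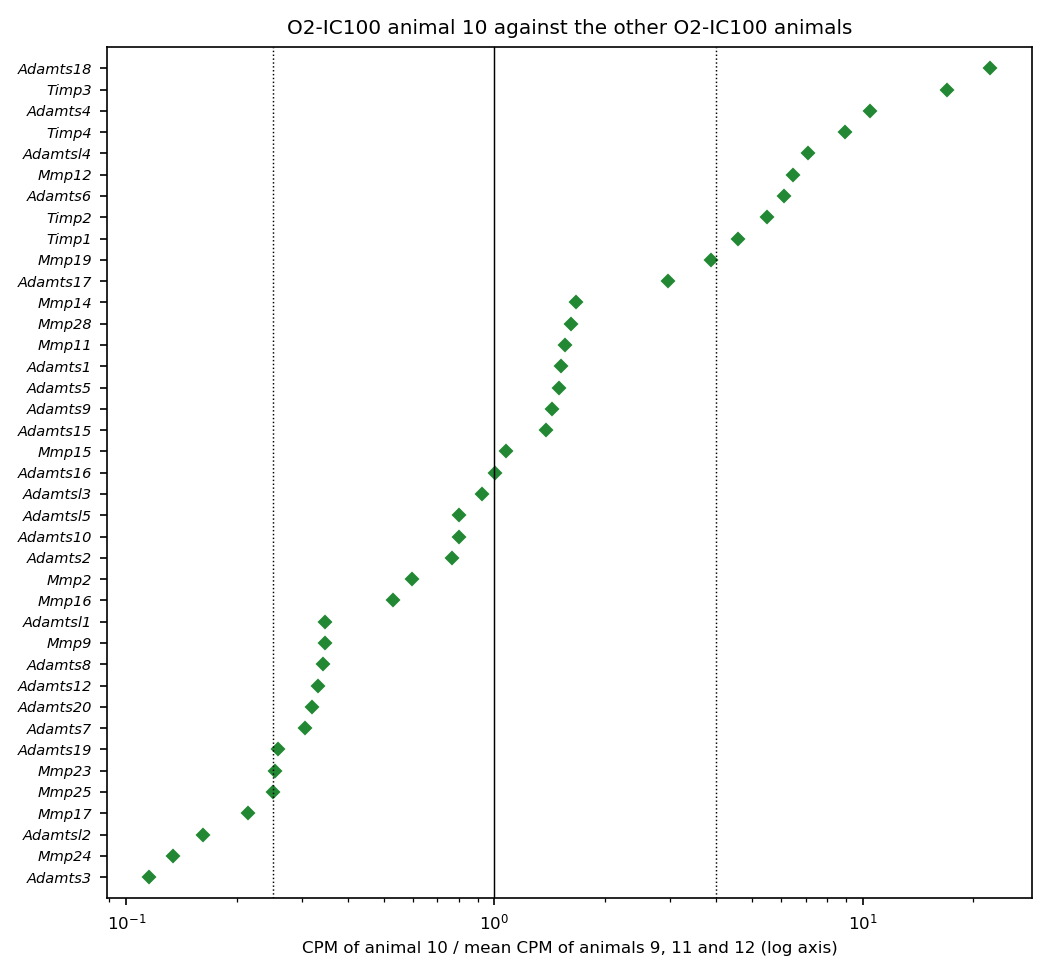
Ratio of the normalised CPM of O2-IC100 animal 10 to the mean of animals 9, 11 and 12 for the 39 tested members, on a log axis, with the solid line at equal levels and dotted lines at 4-fold higher and lower. Adamts18, Timp3 and Adamts4 lie farthest to the right and Adamts3 and Mmp24 farthest to the left.

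The genes that act on or beside these enzymes were described from 5 lists of 39 genes, of which 35 were tested without animal 10. Between O2-PBS and RA-PBS, 8 were called higher and 1 lower (25.7%, against 6.27% of all genes). The lists were chosen with earlier results of these data known, so these shares do not measure an excess. The plasminogen system, which makes plasmin and through it activates pro-MMPs, was among these lists, and Plau (urokinase), Plaur (its receptor) and Serpine2, a serine protease inhibitor, rose. Plau stood at 0.387 to 0.686 CPM in RA-PBS and 1.20 to 2.11 CPM in O2-PBS (log2 fold change 1.63 ± 0.34 SE, edgeR adjusted p = 0.0100), and Serpine2 at 14.4 to 21.95 CPM and 26.8 to 32.1 CPM (log2 fold change 0.74 ± 0.12 SE, adjusted p = 0.00308). Among the other regulators A2m, the broad protease inhibitor alpha-2-macroglobulin, stood at 5.21 to 17.1 CPM in RA-PBS and 35.9 to 51.7 CPM in O2-PBS (log2 fold change 2.095 ± 0.29 SE, adjusted p = 0.0013). Thbs2, a matrix protein that helps clear MMP2, rose by 1.47 ± 0.28 on the log2 scale (SE, adjusted p = 0.00702). Tfpi2, an inhibitor of plasmin and other serine proteases, was called higher as well, at 0 to 0.112 CPM in RA-PBS, under the floor of 3 counts, and 0.417 to 0.886 CPM in O2-PBS. Adam12 was the 1 of 8 tested ADAM genes that rose (0.72 ± 0.19, adjusted p = 0.0362), and Bcan (brevican), a proteoglycan that ADAMTS enzymes cut, fell by 1.17 ± 0.35 (adjusted p = 0.0628), where RA-PBS animal 4 stood at 23.5 CPM and the other 3 at 6.90 to 8.04 CPM. The 8 fibrillin microfibril genes gave 0 calls. Between O2-IC100 and O2-PBS, Adam12 alone was called, lower by a log2 fold change of -0.86 ± 0.21 (SE, edgeR adjusted p = 0.0991), from 6.90 to 11.9 CPM in O2-PBS to 4.27 to 5.43 CPM in the 3 O2-IC100 animals.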

How the data were processed

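Processed expression values were analysed for 12 retinas, 1 library per animal. The authors sequenced poly(A)-selected RNA with 150 bp paired ends, quantified it with kallisto against the mouse genome GRCm39 and deposited estimated counts per Ensembl gene, 42.2% of them not whole, which were rounded here before testing. Symbols were found for 35374 of 36131 genes. The members and gene lists were chosen with earlier results of these data known. Main tests were two-sided quasi-likelihood tests in edgeR 4.0.16 (R 4.3.3, TMM, filterByExpr, robust) with all 3 groups in 1 fit, run with and without O2-IC100 animal 10, and Benjamini-Hochberg adjustment covered all tested genes. Normalised CPM used the TMM factors of the fit of all 12 libraries. Alternatives were DESeq2 1.42.0, limma 3.58.1 (voom), RLE scaling, other filters and thresholds, the 2 groups alone, a lens or Y-linked covariate, and leaving out each animal. Single genes were named if called in any comparison, if they were Timp genes or among 10 genes fixed by name, or if they had the highest counts or largest fold changes; members outside that rule that are named were chosen after their values were seen, as were the motifs. The tests were tried on simulated data. The labels do not say that libraries of a group came from separate litters, so p-values, SDs and SEs rest on the spread between these animals. The floor of 3 counts covers counting error only. RNA extraction is described differently by the labels and the methods. No paired analysis was made. A gene of the related lists, counted in their totals, is not reported here by name.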

Additional observations from a re-analysis of the deposited data

Results flagged for a closer look

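Among 69 checks of the named members, each over the 4 animals of a group, 16 had 1 animal far from the other 3 by Dixon's criterion at the 95% level. Chance flags about 1 in 20 such groups where values are normally distributed. For Mmp3 and Timp2 the other 3 animals were at 0, where any count sets the flag. Some members were also named for large fold changes, so the 16 of 69 cannot be set against that rate. In O2-IC100, animal 10 was the far sample in 9 of them, at 279.3 CPM for Adamts18, 42.51 for Adamts4, 21.57 for Adamts6, 8.928 for Mmp12, 38.97 for Mmp14, 0.6307 for Mmp3, 3.91 for Timp1, 1417 for Timp3 and 11.35 CPM for Timp4. In O2-PBS, animal 5 stood apart for Adamts1 at 98.79 CPM, for Adamts4 at 12.35 and for Adamtsl3 at 1.446 CPM, and animal 6 for Timp2 at 2.171 CPM, the other 3 being listed at 0. In RA-PBS, animal 1 stood apart for Adamtsl3 at 1.906 CPM and for Mmp12 at 0 CPM, and animal 3 for Mmp3 at 0.05545 CPM, which was 1 count. No explanation of these values was tested.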

How the results depend on the processing

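The number of called members depended on the processing, and each count below is of members. The same settings also changed the share of all tested genes called, which is given in parentheses. With all 12 animals, 0 members were called between O2-PBS and RA-PBS (0.807%). DESeq2 gave 5 (2.5%), limma voom 2 (1.16%), the 2 groups alone 7 (5.36%), a lens covariate 13 (14.3%) and a Y-linked covariate 2 (1.5%). Leaving out each animal in turn gave 0 to 8, the 8 being without animal 10 (6.27%). The 0 calls between O2-IC100 and O2-PBS (0%) became 14 with a Y-linked covariate (22.3%). The 0 between O2-IC100 and RA-PBS (0%) became 3 with DESeq2 (1.81%), 14 with a lens covariate (20.1%) and 1 with a Y-linked covariate (0.546%). Leaving out each animal gave 0 to 1, the 1 being without animal 10 (1.56%). Without animal 10, the 8 calls between O2-PBS and RA-PBS (6.27%) became 17 with a lens covariate (18.4%) and 5 with a Y-linked covariate (5.27%). Leaving out a further animal gave 4 to 11. There were 4 without O2-PBS animal 6 (5.19%), 5 without O2-PBS animal 7 (4.85%) and 11 without RA-PBS animal 3 (8.09%). The 0 calls between O2-IC100 and O2-PBS (0.947%) became 5 with DESeq2 (2.3%) and 8 with the 2 groups alone (4.83%). A lens covariate gave 1 (2.35%). Leaving out a further animal gave 0 to 5, the 5 being found without RA-PBS animal 4 (2.6%). The 1 call between O2-IC100 and RA-PBS (1.56%) became 4 with DESeq2 (3.39%) and 0 with the 2 groups alone (0.11%). A lens covariate gave 12 (8.92%). Leaving out a further animal gave 0 to 6. There were 0 without RA-PBS animal 2 (0.602%) or O2-IC100 animal 12 (0.124%) and 6 without RA-PBS animal 4 (5.57%). Timp3 reversed between O2-PBS and RA-PBS with all 12 animals and a lens covariate, at a log2 fold change of 1.43. The cause was not tested. The lens covariate rests on few libraries, since animal 10 and 3 RA-PBS animals hold nearly all lens RNA. With all 12 animals the Y-linked covariate also sets animal 10 apart from the rest of its group.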

Other observations

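RA-PBS animal 4 lay above the other room air retinas for Adamts4, Timp4 and Bcan. It had 17.0 CPM of Adamts4, where the other 3 had 3.82 to 6.69 CPM, 4.16 CPM of Timp4, where they had 0.869 to 1.46 CPM, and 23.5 CPM of Bcan, where they had 6.90 to 8.04 CPM. It was also the 1 RA-PBS library with little Y-linked RNA, at 5.61 summed CPM. These genes were picked after their values were seen, and no cause was tested. The number of genes that set this animal apart was not counted, and Dixon's criterion did not flag it for Adamts4 or Timp4.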
